A study of Mus musculus with 2 samples.

Results

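The cells described here are 141 γδ T cells of mouse adipose tissue, taken from 10017 cells that carry a cluster number in the authors' deposited cluster table. A cell was included when that table placed it in cluster 11 (at the clustering resolution of 0.5) and its barcode held at least 1 raw UMI of Trdc, the constant gene of the T cell receptor δ chain. A UMI (unique molecular identifier) stands for 1 captured RNA molecule. The rule gave 45 of 4458 clustered cells in the chow library and 96 of 5559 in the ketogenic library. Both libraries came from adult wild-type (wt) C57BL/6 mice, without any transgene or deletion in either group. One group ate normal chow and the other a ketogenic diet (KD), each for 1 week, and CD45+ cells resident in the adipose tissue were set apart from blood cells by an intravenous label before droplet capture on the 10x Genomics platform. The study asked what the diet does to the resident immune compartment of the fat. The number of mice behind each library was not stated, and each diet has 1 library, so no difference between diets has a replicate check, no p-value is given, and diet and library cannot be told apart. All intervals below are 95% and cover counting error only.

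γδ T cells carry a receptor made of a γ and a δ chain in place of the α and β chains of most T cells. One branch leaves the thymus already committed to IL-17: it depends on the transcription factors c-Maf and Sox13 and on the kinase Blk, responds to IL-23 and IL-1β, and settles in skin, lung, gonads and fat. In adipose tissue such cells are known as a source of IL-17A and have been tied to the upkeep of regulatory T cells and to heat production.

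The 45 chow members held between 1840 and 7939 UMIs each, with a median of 2947, and the 96 ketogenic members between 2048 and 7243, with a median of 3493. Their sums were 139100 and 360718 UMIs, from libraries of 21570910 and 26041785 UMIs. Levels are given in CPM, the UMIs of a gene per 1000000 UMIs summed over the cells of a population in 1 library. Of 10159 barcodes, 41 occurred in both libraries, and 1 of these was a member. No doublet caller was run; 1 member in each library held over 2 times the median depth.

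The name of the population was checked against its markers. Trdc chose the cells and is given only as a description: the members held between 1 and 16 Trdc UMIs under chow (median 6) and between 1 and 45 under the ketogenic diet (median 8). At least 1 of the other markers Cd163l1, Il17re and Actn2 had a UMI in 136 of the 141 cells, and at least 1 of the CD3 genes Cd3e, Cd3d and Cd3g in 140. Several genes that define other lineages were missing: Foxp3 of regulatory T cells, Il22 of type 3 innate lymphoid cells, Eomes and Prf1 of NK cells and Adgre1 and Mrc1 of macrophages were at 0 UMIs in both libraries. Other genes of the same lists were present. The 4 genes of the regulatory T cell list summed to 324 and 302 CPM in chow and ketogenic members and to 124 and 223 CPM in all other cells, from Ikzf2, Il2ra and Ctla4. The 5 genes of the type 3 innate lymphoid list summed to 546 and 441 CPM against 186 and 307 CPM, with Il7r alone at 482 and 363 CPM in members. An αβ T cell list of 6 genes (Trac, Trbc1, Trbc2, Cd4, Cd8a and Cd8b1) was not lower in members. It summed to 1028 and 1356 CPM against 424 and 1351 CPM in all other cells.

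Some RNA of other lineages was present, and it differed between the libraries. The 10 macrophage genes summed to 1143 CPM in chow members and 161 CPM in ketogenic members, beside 12702 and 2168 CPM in all other cells. Every chow member held at least 1 macrophage-marker UMI (range 1 to 9), whereas 59 of 96 ketogenic members held none. The 6 MHC class II genes summed to 2804 and 1309 CPM in members and to 39522 and 27843 CPM elsewhere. B and plasma cell genes stood at 1668 and 1569 CPM, adipocyte and stromal genes at 86.3 and 11.1 CPM. The part of these RNAs in the diet values below was not tested, except where the same ratio in other clusters is given.

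**Figure D1:**
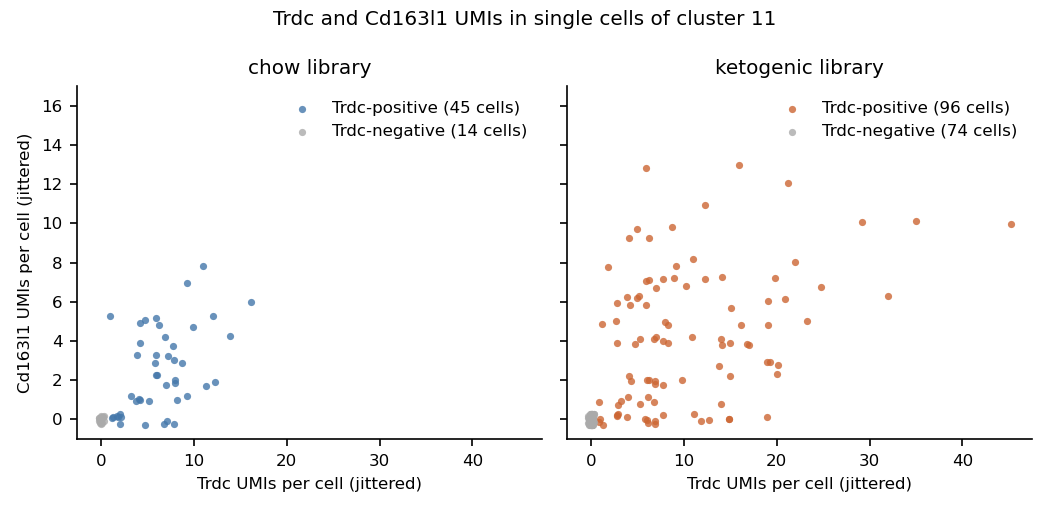
Each point is 1 cell of cluster 11, with its raw Trdc UMIs on the x axis and its raw Cd163l1 UMIs on the y axis, for the chow library (left) and the ketogenic library (right); points are jittered by less than 1 UMI. The Trdc-negative cells (14 and 74) all sit at 0 Cd163l1 UMIs, and the Trdc-positive cells (45 and 96) spread from 0 to 8 and from 0 to 13.

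Genes that set the members apart from all other clustered cells were led by T cell receptor, scavenger receptor and structural genes. This is a description of a cluster and carries no test. Cd163l1 (chr7:140218267-140231145, mm10/GRCm38, plus strand), which encodes the scavenger receptor SCART1, had 798 CPM in chow and 1126 CPM in ketogenic members, and 2.12 and 3.65 CPM in the other cells. Its UMIs were concentrated in this population: 71.2% of all Cd163l1 UMIs of the clustered chow cells and 81.4% of those of the clustered ketogenic cells lay in the members. Actn2 (chr13:12269426-12340760), a sarcomeric α-actinin, had 338 and 441 CPM, and Il17re (chr6:113458484-113470758), a subunit of the receptor for IL-17C, had 101 and 158 CPM. Tcrg-C1 (chr13:19214103-19217024), a γ chain constant gene, had 1071 and 1181 CPM. With 20 CPM added to both sides, the log2 difference from all other cells was 5.52 for Cd163l1, 5.48 for Trdc, 4.09 for Actn2, 4.07 for Tcrg-C1 and 2.91 for Il17re. The other leading genes were Ly6g5b (3.53), the thrombin receptor F2r (3.45), Tcrg-C2 (3.41), Blk (3.32), the chemokine receptor Cxcr6 (3.07), Rbpms2 (3.03), the potassium channel Kcnk1 (2.98), Cd3g (2.86), the variable gene Trdv4 (2.79) and Pxdc1 (2.75). Many of these were shared with the Trdc-negative cells of cluster 11. There Pxdc1 stood at 512 and 516 CPM against 216 and 274 CPM in members, Il17re at 177 and 109 CPM, Actn2 at 256 and 215 CPM, and F2r at 335 and 401 CPM against 302 and 535 CPM.

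The V segments found in these cells are shown by the ends of their coding sequence, because that end carries the conserved cysteine and is where V joins the rest of the receptor chain. The last 60 bases of each annotated transcript (GENCODE M21, GRCm38) are printed 5′ to 3′, and the capitals mark the 2 codons TAC and TGT for tyrosine and cysteine. Trdv4 is at chr14:54074905-54075515 (plus strand), Tcrg-V6 at chr13:19190356-19190929 and Tcrg-V4 at chr13:19184974-19185506.
Trdv4: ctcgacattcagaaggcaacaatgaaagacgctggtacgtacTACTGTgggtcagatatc
Tcrg-V6: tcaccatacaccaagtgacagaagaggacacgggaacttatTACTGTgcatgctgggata
Tcrg-V4: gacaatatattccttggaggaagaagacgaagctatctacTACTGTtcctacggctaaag

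Trdv4 was the V segment found in the most members. It had a UMI in 16 of 45 chow members (35.6%, exact Clopper-Pearson interval 21.9 to 51.2%) and in 33 of 96 ketogenic members (34.4%, 24.98 to 44.8%). The 2 shares overlap almost entirely. No Trdv4 UMI was found in the Trdc-negative cells of cluster 11 (0 of 14 and 0 of 74). The exact upper limits of these 2 shares were 23.2% and 4.86%, and the chow limit reaches into the interval of the chow members. No Trdv4 UMI was found either in the Trdc-positive cells of cluster 4, the other deposited cluster rich in Trdc. There the shares were 0 of 44 (up to 6.82%) and 0 of 108 (up to 2.78%). These 2 bounds are 3 divided by the number of cells, slightly below the exact limits. Cluster 6, in which the dendritic cell gene Xcr1 had a UMI in 172 of 307 chow and 253 of 355 ketogenic cells and which served as background, had 0 as well, at median depths of 7906 and 9922 UMIs. Of all clustered cells with a Trdv4 UMI, 16 of 92 under chow and 33 of 140 under the ketogenic diet were members, so the segment was not confined to them. Tcrg-V6, whose chain is known as a partner of the Trdv4 chain in IL-17-producing γδ T cells, had a UMI in 4 chow and 5 ketogenic members. Trgv2 was found in more of them, 2 chow and 10 ketogenic members, and also in 1 of 14 and 8 of 74 Trdc-negative cells. Tcrg-V4 had a UMI in 2 and 2 members and Trdv2-2 in 1 and 1. A V segment without a UMI is not shown to be absent from a cell, since each was counted from few UMIs per cell: after every cell was thinned to 1000 UMIs, the Trdv4 share was 12.7% of chow members and 13.6% of ketogenic members.

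The γ constant genes are shown because 3 of the 4 are nearly the same in sequence, which limits what their separate counts can say. The first 60 bases of each transcript are printed 5′ to 3′ (GENCODE M21), and capitals mark bases that differ from Tcrg-C1.
Tcrg-C1: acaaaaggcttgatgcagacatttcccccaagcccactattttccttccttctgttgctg
Tcrg-C2: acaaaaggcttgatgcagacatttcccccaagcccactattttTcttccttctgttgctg
Tcrg-C3: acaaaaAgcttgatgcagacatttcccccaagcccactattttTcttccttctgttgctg
Tcrg-C4: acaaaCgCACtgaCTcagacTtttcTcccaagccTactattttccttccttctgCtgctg

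Over the aligned transcripts, Tcrg-C2 was 96.2% and Tcrg-C3 97.2% identical to Tcrg-C1, and Tcrg-C4 71.2%. Reads of Tcrg-C1, Tcrg-C2 and Tcrg-C3 may therefore have been split or dropped in counting, and their levels are uncertain. As deposited, Tcrg-C1 had a UMI in 40 of 45 and 91 of 96 members, Tcrg-C2 in 21 and 48, Tcrg-C4 in 22 and 54, and Tcrg-C3 in 0 and 2.

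The α chain constant gene Trac had 71.9 CPM in chow and 63.8 CPM in ketogenic members, with a UMI in 9 of 45 and 19 of 96 cells. In 24 of these 28 cells it was a single UMI. In the Trdc-negative cells of the same cluster Trac stood at 512 and 634 CPM, with a UMI in 9 of 14 and 53 of 74 cells. In cluster 6 the share with a Trac UMI was 4.23% and 15.8%, at more than 2 times the depth. Trbc1 and Trbc2, the β chain constant genes, were present in members at 345 and 496 CPM and at 604 and 779 CPM. Cd4, Cd8a or Cd8b1 had a UMI in 1 chow and 5 ketogenic members.

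The members were not uniform. Cd163l1 had a UMI in 34 of 45 chow members (75.6%) and 77 of 96 ketogenic members (80.2%), against 0.651% and 1.97% of cluster 6 cells. Of the 49 members with a Trdv4 UMI, 47 also had a Cd163l1 UMI. Over both libraries, Trdv4 stood at 178 CPM (138 to 224) in the 111 members with a Cd163l1 UMI and at 28.4 CPM (5.86 to 83.0) in the 30 without. Blk stood at 254 CPM (206 to 309) against 66.3 CPM (26.6 to 137), and Tcrg-C1 at 1306 CPM (1196 to 1424) against 568 CPM (434 to 731). These 3 genes were lower in the Cd163l1-negative members of each library: Tcrg-C1, for instance, stood at 318 against 1320 CPM under chow and at 690 against 1302 CPM under the ketogenic diet. Tcrg-C2 ran the other way, at 246 CPM (200 to 300.2) with and 587 CPM (450 to 753) without a Cd163l1 UMI, and did so in each library (258 against 521 CPM under chow, 242 against 619 CPM under the ketogenic diet). 5830411N06Rik, which encodes the related scavenger receptor SCART2, also ran the other way, at 63.4 CPM (41.0 to 93.6) with and 189 CPM (116 to 292) without; its chow value without Cd163l1 rested on 5 UMIs. The median depth was 2811.5 and 3489 UMIs with a Cd163l1 UMI and 3223 and 3583 without, under chow and the ketogenic diet. The median Trdc count was 7 and 8 UMIs with a Cd163l1 UMI and 2 and 6 without. The part of sampling in the missing Cd163l1 UMIs was not tested. These cells were split on a measured gene, and the values are a description.

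Near the threshold of the rule, 8 members held a single Trdc UMI, and 6 held 2. Cd163l1 had a UMI in 3 of the 8 and in 1 of the 6, and Trdv4 in none of these 14 cells. Among the 127 members with at least 3 Trdc UMIs, Cd163l1 had a UMI in 107 and Trdv4 in 49. Just outside, the 88 cells of cluster 11 with 0 Trdc UMIs had no Cd163l1 UMI. Trac stood at 618 CPM in them and at 61.4 CPM in members with at least 3 Trdc UMIs. In the 8 members with 1 Trdc UMI, Trac had 4 UMIs, 3 in the 3 chow cells and 1 in the 5 ketogenic cells (413 CPM, 85.1 to 1206, and 54.6 CPM, 1.38 to 304), too few to place them.

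The promoters of 3 marker genes (Cd163l1, Actn2 and Il17re) and of the cytokine gene Il17a are shown, because their transcripts were found in this population. The 250 bases before the RefSeq start of each gene (RefSeq, GRCm38.p6) are printed 5′ to 3′ in the direction of the gene. Cd163l1 is on the plus strand at chr7:140218017-140218266, Actn2 on the minus strand at chr13:12340733-12340982, Il17re on the plus strand at chr6:113458521-113458770 and Il17a on the plus strand at chr1:20730655-20730904. Capitals mark the core half-site AGGTCA of the ROR nuclear receptors, the family of Rora, on either strand.
Cd163l1: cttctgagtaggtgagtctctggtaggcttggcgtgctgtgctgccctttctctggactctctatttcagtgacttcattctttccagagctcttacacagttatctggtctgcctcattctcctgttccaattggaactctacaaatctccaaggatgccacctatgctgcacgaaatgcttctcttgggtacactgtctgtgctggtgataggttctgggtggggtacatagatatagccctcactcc
Actn2: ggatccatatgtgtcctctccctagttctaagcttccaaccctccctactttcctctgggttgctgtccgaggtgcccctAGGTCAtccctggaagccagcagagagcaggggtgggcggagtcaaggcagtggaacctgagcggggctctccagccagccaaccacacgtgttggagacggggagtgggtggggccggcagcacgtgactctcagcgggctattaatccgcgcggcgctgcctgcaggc
Il17re: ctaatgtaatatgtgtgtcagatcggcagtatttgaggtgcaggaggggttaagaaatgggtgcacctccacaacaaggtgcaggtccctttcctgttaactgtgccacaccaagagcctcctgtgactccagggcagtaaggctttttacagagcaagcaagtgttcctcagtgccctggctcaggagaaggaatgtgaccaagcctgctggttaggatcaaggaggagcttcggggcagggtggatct
Il17a: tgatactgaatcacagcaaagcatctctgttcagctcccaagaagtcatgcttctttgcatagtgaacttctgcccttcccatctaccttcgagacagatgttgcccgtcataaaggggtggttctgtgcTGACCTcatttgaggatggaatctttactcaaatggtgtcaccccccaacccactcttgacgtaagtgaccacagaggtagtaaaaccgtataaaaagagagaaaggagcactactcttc

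AGGTCA occurred once in the Actn2 window, starting at -170 from the start, and once in the Il17a window, on the opposite strand (TGACCT) at -120. It was not among the letters of the Cd163l1 and Il17re windows, so 1 of the 3 markers held it. The SOX core AACAAT, searched on both strands, was in none of the 4. Of 32851 RefSeq promoters, 14.02% held AGGTCA and 9.42% AACAAT in the same length. A match is a description of the letters and not a bound site.

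The closest neighbours of the members were the 88 Trdc-negative cells of the same cluster (14 chow, 74 ketogenic). The clusters were made from the same genes, so this is a description too. Of 2268 genes with at least 50 UMIs, 16 (0.705%) were at least 2-fold higher in members in both libraries and 22 (0.97%) at least 2-fold lower, 38 in all (1.68%). In the chow library alone 409 genes (18%) passed 2-fold and in the ketogenic library 102 (4.5%), with only 14 chow cells on the Trdc-negative side.

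Higher in members were Cd163l1, at 798 and 1126 CPM against 0 in both libraries, and Trdv4, at 151 and 144 CPM against 0. Set against a floor of 3 counts in each library's Trdc-negative cells, Cd163l1 was 13.5-fold higher under chow and 121-fold higher under the ketogenic diet. The exact conditional intervals began at 10.8-fold and 97.7-fold. Pdcd1, which encodes the inhibitory receptor PD-1, had 137 and 191 CPM against 0 and 18.7 CPM. Cd247, the ζ chain of the CD3 complex, was 3.38-fold higher under chow and 2.62-fold (1.72 to 4.07) higher under the ketogenic diet. Blk was 2.55-fold and 5.03-fold (2.83 to 9.62) higher, with a chow interval that reached below 1, to 0.894. Rln3, Sdf2l1 and Susd3 completed the 8 highest.

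Lower in members was Il22, the cytokine of type 3 lymphocytes. Its UMIs came from few cells: 38 UMIs in 2 of the 14 Trdc-negative chow cells, 21 of them in 1 cell, and 84 UMIs in 4 of the 74 ketogenic ones, 35 of them in 1 cell. Most Trdc-negative cells had no Il22 UMI either. The 141 members had 0. A bound of 3 divided by the number of cells allows a share of up to 6.67% of chow and 3.12% of ketogenic members. The intervals of the shares overlap those of the Trdc-negative cells (1.78 to 42.8% and 1.49 to 13.3%). The summed level was 34.7-fold and 31.4-fold lower against the floor of 3 counts in members. As a ratio of members to Trdc-negative cells, the upper bounds were 0.0372 and 0.0400. These values rest on those 2 and 4 cells. Cd28, the co-stimulatory receptor, had 7.19 and 13.9 CPM in members and 78.8 and 159 CPM in the Trdc-negative cells, although the chow values rested on 1 and 4 UMIs. Trac was lower by log2 ratios of -2.79 and -3.29. Nrgn, Rrad, Igfbp7, Cd40lg and Ctla2a were the others of the 8 lowest. In members, 1 cell held all 22 Igfbp7 UMIs, 1 cell held both Nrgn UMIs, and 27.3% of the 11 Cd40lg UMIs lay in 1 cell. Among the gene lists, Tcrg-C1, Tcrg-C4, Cd247, Blk, Cd163l1, Pdcd1 and Trdv4 were the genes higher in both libraries, and Cd28, Lck, Il22, Lgals3 and Cd40lg those lower. Of 16 scavenger and structural genes, only Cd163l1 was higher in both libraries. Of 9 transcription factor and lineage genes, Blk passed 2-fold in both, and of 10 cytokine receptors and 11 trafficking genes none did, beside 1.68% of all genes; at that share these counts say nothing particular about the lists.

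The other Trdc-rich cells, 152 Trdc-positive cells of cluster 4 (44 chow, 108 ketogenic), were further away. Of 2504 genes, 151 (6.03%) were at least 2-fold higher in members in both libraries and 98 (3.91%) lower, 249 in all (9.94%). Of 15 measured scavenger and structural genes, 14 were higher in both, with a median log2 ratio of 4.08 under chow and 3.79 under the ketogenic diet, beside 0.08 and 0.08 over all genes. Actn2 and Blk had no UMI in the cluster 4 cells of either library. Tnfsf11, which encodes RANK ligand, had 446 and 286 CPM in members and 0 and 9.56 CPM in cluster 4. The transcription factor genes Maf (539 and 413 CPM against 59.3 and 57.4) and Rora (439 and 255 against 42.4 and 35.9) were higher, as were Il17re, Il7r, Il2ra and Il27ra among the cytokine receptors.

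The cytotoxic and NK receptor genes were on the other side. Of 14 measured cytotoxic and interferon-γ genes, 13 were lower in members in both libraries, with median log2 ratios of -3.84 and -3.69. This too describes clusters made from the same genes and is not a test. Ccl5, a chemokine of cytotoxic cells, had 194 and 435 CPM in members and 11848 and 9583 CPM in cluster 4. Ly6c2 had 14.4 and 119 CPM against 3076 and 3476 CPM, with 33.3% of its UMIs in members in 1 cell. The killer lectin receptor genes Klrc1, Klra1, Klre1, Klrd1 and Klrc2 and the chemokine gene Xcl1 made up the rest of the 8 lowest. The Klr genes form families of close copies, and reads may be split between them. Klrc1, Klre1 and Klrc2 had only 1, 3 and 2 UMIs in members, with 100%, 66.7% and 50% of them in 1 cell.

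**Figure D2:**
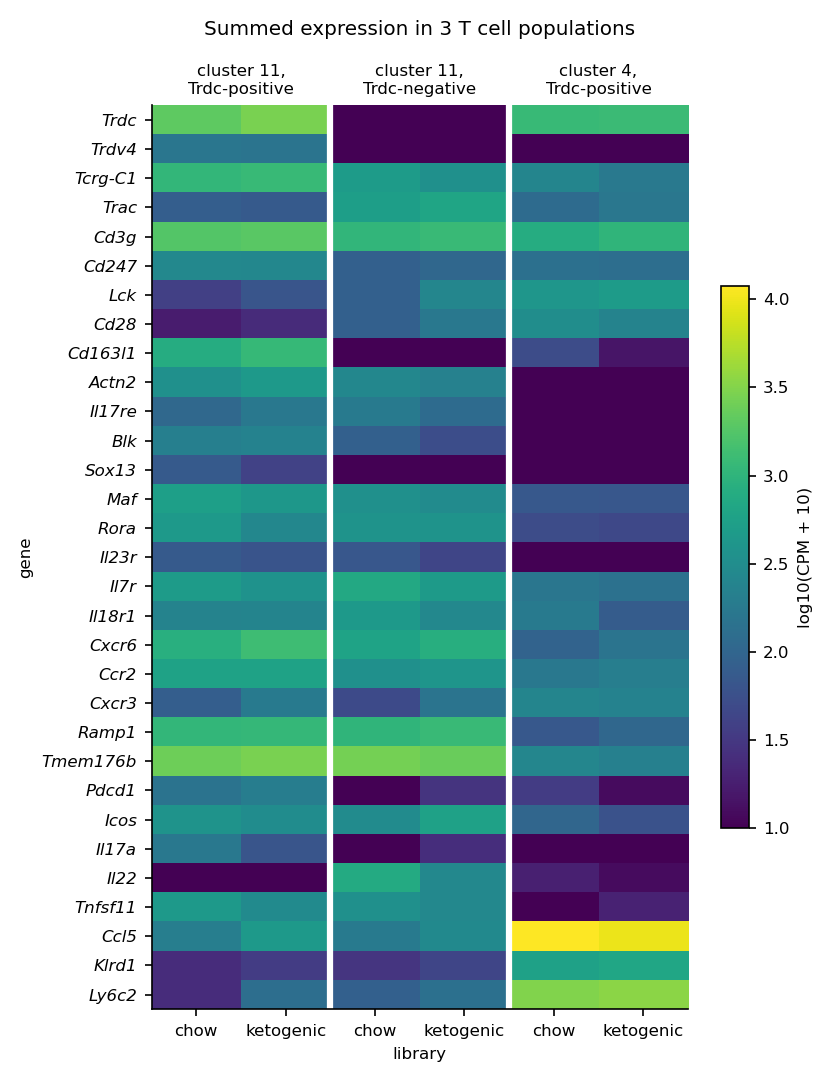
Colour shows log10(CPM + 10) of genes (rows) summed over the cells of each population and library (columns). Cd163l1, Trdv4 and Sox13 are dark in Trdc-negative cells of cluster 11, Il22 is dark in the members, and Ccl5 and Ly6c2 are brightest in cluster 4.

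The share of the population was higher in the ketogenic library. The members made up 1.01% of clustered cells under chow (0.737 to 1.35%) and 1.73% under the ketogenic diet (1.401 to 2.10%), a ratio of 1.71 (1.19 to 2.495). With clusters 2, 7 and 11 as the denominator, the shares were 9.89% of 455 cells and 7.28% of 1319 cells, and the ratio turned to 0.736 (0.511 to 1.07). The direction of the diet difference therefore depended on the cells it was set against. Within cluster 11, the members were 45 of 59 cells under chow (76.3%) and 96 of 170 under the ketogenic diet (56.5%), and the Trdc-negative cells numbered 14 and 74. Among all Trdc-positive clustered cells the members were 45 of 251 (17.9%) and 96 of 580 (16.6%), intervals of which overlap (13.4 to 23.2% and 13.6 to 19.8%). The Trdc level itself was 2063 CPM (1831 to 2316) in chow and 2814 CPM (2643 to 2992) in ketogenic members, and Tcrg-C1 stood at 1071 CPM (906 to 1258) and 1181 CPM (1071 to 1299).

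Gene levels in the members were otherwise close between the libraries. Of 1298 genes with at least 50 UMIs, 38 (2.93%) differed at least 2-fold: 26 (2%) were higher and 12 (0.924%) lower in the ketogenic members. The median log2 ratio was 0.04, and the span from the 5th to the 95th percentile was -0.61 to 0.77. The 2 widest ratios were among the 12 lower genes, and the 10 lowest included genes of macrophages and antigen-presenting cells.

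Retnla (chr16:48842551-48844461), a secreted product of alternatively activated macrophages, had 63 UMIs in 38 chow members and 14 in 14 ketogenic members, a log2 ratio of -3.51. Lyz2, the lysozyme of myeloid cells, had 73 UMIs in 33 and 32 in 24 members (-2.55), and Cxcl2 had 30 in 23 and 22 in 11 (-1.81). H2-Ab1 and Cd74, of the MHC class II pathway, had log2 ratios of -1.30 and -1.27, and Tyrobp, a signalling adaptor of myeloid and NK cells, -1.08. In clusters 0, 1 and 2, Retnla stood at -2.45, -3.38 and -2.79, Lyz2 at -2.32, -2.86 and -2.71, H2-Ab1 at -1.02, -1.06 and -1.20, and Cd74 at -1.04, -1.16 and -1.23. Cxcl2 (-0.71 and -3.08 in clusters 0 and 1) and Tyrobp (-1.06, 0.04 and -1.17) varied more between clusters. Over every cell of cluster 11, Trdc-negative cells included, H2-Ab1 went to -0.63 and Cd74 to -0.01.

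Crip1 (chr12:113146316-113153879), a small LIM-domain protein gene, was the most counted gene past 2-fold. It had a UMI in all 45 chow and all 96 ketogenic members, with 9497 CPM (8991 to 10023) and 3898 CPM (3697 to 4107), a log2 ratio of -1.28. The ratio was -0.82, -0.50 and -0.84 in clusters 0, 1 and 2. In all clustered cells outside the members, Crip1 went from 10701 CPM under chow to 4947 CPM under the ketogenic diet. Flna (filamin A, -1.10), the chloride transporter Clcn3 (-1.16) and Gm10116 (-1.51) were the others of the 10 lowest. Flna stood at -0.661, -0.799 and -0.771 in clusters 0, 1 and 2, and Gm10116 at -0.562, -1.003 and -0.759. Clcn3 stood at -0.25, -0.28 and -0.45 in the same clusters. Outside the members, Flna went from 247 CPM under chow to 131 CPM under the ketogenic diet, and Gm10116 from 629 to 195 CPM. Clcn3 ran the other way there, from 21.7 to 25.6 CPM.

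The genes highest under the ketogenic diet each rested on few chow UMIs. Cnp (chr11:100574904-100591729), the myelin-associated phosphodiesterase, had 5 UMIs in 5 chow members and 52 in 39 ketogenic members, at 36.0 CPM (11.7 to 83.9) and 144 CPM (108 to 189). Uqcrc1, a core subunit of respiratory complex III, had 5 in 5 and 49 in 40, a ratio of 3.78 (1.51 to 12.2). Akr1c13, an aldo-keto reductase with close paralogues in the same cluster of genes, had 5 and 46 UMIs (log2 1.70). Ms4a4b (8 and 74 UMIs, log2 1.76), Vars (1.46), H2-T22 (1.45), the antiviral deaminase Apobec3 (1.45), Rnaset2b (1.40), Rasal3 (1.40) and Hsd11b1, which activates glucocorticoids (1.38), completed the 10 highest. H2-T22 and Rnaset2b have near-identical copies, so their counts are uncertain. In clusters 0, 1 and 2, Akr1c13 gave 0.33, 0.01 and -0.52, and the other 9 genes were above 0 in each, from 0.16 to 0.84. In all clustered cells outside the members, all 10 genes were higher under the ketogenic diet. Hsd11b1 went there from 33.4 to 91.5 CPM, against 50.3 to 139 CPM in members. Ms4a4b went from 262 to 654 CPM, against 57.5 to 205 CPM, and Uqcrc1 from 124 to 145 CPM, against 35.9 to 136 CPM. In the Trdc-negative neighbours, Akr1c13 was lower and the other 9 genes were higher, on chow counts of 2 to 6 UMIs. The lower bound of the ratio in members was between 1.20 and 1.72 for these 10 genes. They were picked for their high ratios, and the intervals do not allow for that choice, so the bounds are a description only.

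**Figure D3:**
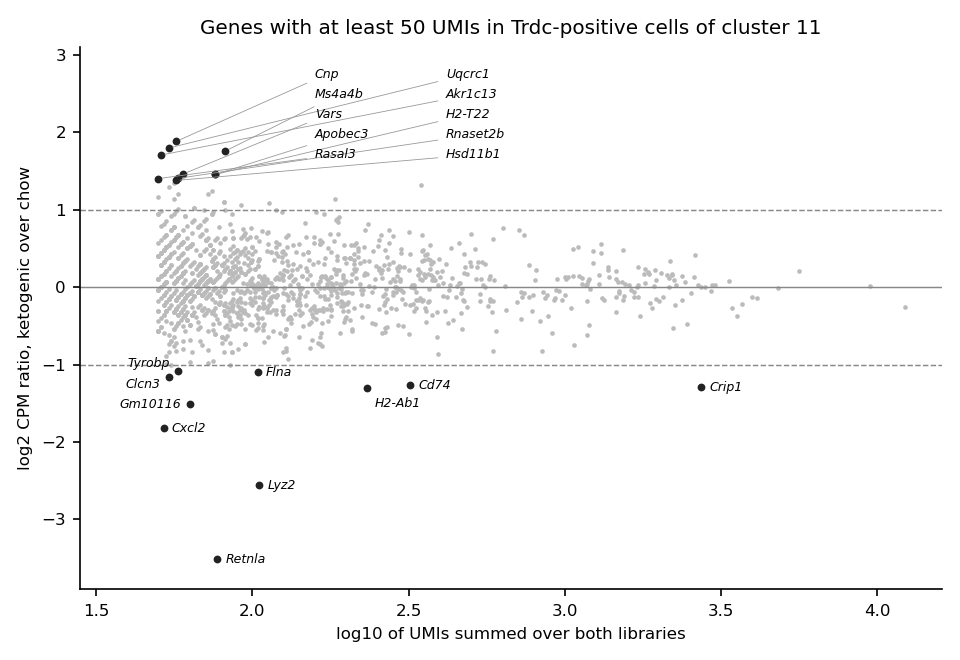
Each point is 1 of 1298 genes with at least 50 UMIs in the members, by log10 of its UMIs over both libraries (x) and the log2 CPM ratio of ketogenic over chow (y); dashed lines mark 2-fold and the 20 named genes are black. Crip1 lies far to the right at -1.28, Retnla and Lyz2 lie lowest at -3.51 and -2.55, and the highest genes have few UMIs.

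The pathway genes are given from lists in which a gene counted as measured with at least 10 UMIs in the members. Over all 5082 such genes, 52.2% had a ratio above 1, 9.76% were at least 2-fold higher and 6.63% at least 2-fold lower under the ketogenic diet, with a median log2 ratio of 0.03. The lists follow in the order of receptor, lineage, effector, trafficking and metabolic genes.

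Of the receptor genes, Trdv4 stood at 151 CPM (93.5 to 231) and 144 CPM (108 to 189), Tcrg-C2 at 324 and 316 CPM and Tcrg-C4 at 309 and 272 CPM. Of 14 CD3 and signalling genes, 10 were higher and none passed 2-fold (median 0.14). Thy1, a surface glycoprotein of T cells, was among them, at 841 CPM (696 to 1008) and 1436 CPM (1315 to 1565). Its log2 ratio was 0.77, beside 0.37, 0.25 and 0.31 in clusters 0, 1 and 2. Lat (712 and 882 CPM) and Cd3g (1790 and 1927 CPM), both part of receptor signalling, differed less.

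Among the 15 transcription factor and lineage genes, 8 were higher and 7 lower. Rora, a nuclear receptor gene, had 439 CPM (335 to 563) and 255 CPM (206 to 313), Maf had 539 and 413 CPM, and Sox13 had 9 UMIs in 9 and 11 UMIs in 11 cells. Runx1 (15 and 17 UMIs, log2 -1.20) and Sox13 (-1.10) were past 2-fold lower, at counts whose intervals overlap. Zbtb16, which encodes PLZF, had 0 UMIs in chow and 10 in ketogenic members. Set against a floor of 3 counts under chow, it was 1.29-fold higher. That value leaves out the counting error of the 10 UMIs, so a difference is not shown. Id2 was higher, at 381 CPM (285 to 498) and 554 CPM (480 to 637).

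The effector and cytokine genes leaned lower in the ketogenic members: 9 of 10 had a ratio below 1, with a median log2 ratio of -0.52 and a range from -1.51 to 0.09. Il17a (chr1:20730905-20734496) had 22 UMIs in 8 chow members, 11 of them in 1 cell, and 20 UMIs in 9 ketogenic members, at most 5 in 1 cell. That gave 158 CPM (99.1 to 239) and 55.4 CPM (33.9 to 85.6), and a share of cells with a UMI of 17.8% (8.002 to 32.1) and 9.38% (4.38 to 17.1), which overlap. The share in cluster 6 was 0.977% and 0%. Without the 1 cell of each library with the most Il17a UMIs, the levels were 81.7 CPM (40.8 to 146) and 42.1 CPM (23.5 to 69.4), and the log2 ratio went from -1.51 to -0.98. Il17f had 1 UMI and 6 UMIs, 5 of the latter in 1 cell. Tnfsf11 had 446 CPM (342 to 571) and 286 CPM (233 to 346), with UMIs in 30 of 45 and 51 of 96 members. Ltb, the lymphotoxin β gene, had 1100 and 923 CPM, and Lta was past 2-fold lower (17 and 22 UMIs, log2 -1.01) with 30.8% of its UMIs in 1 cell. Areg and Tnf each had 6 and 12 UMIs, and Il21 none in either library.

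Of 16 cytokine receptor genes, 8 were higher and 8 lower, and none passed 2-fold. Il23r had 9 and 19 UMIs and Il1r1 6 and 19, the receptors for the cytokines that drive IL-17 in these cells. Il7r had 482 and 363 CPM, Il18r1 230 and 233 CPM, and Il17re 101 CPM (55.0 to 169) and 158 CPM (120 to 205). Ifngr1, the interferon-γ receptor, was among the 8 higher genes, at 1035 and 1652 CPM, a ratio of 1.60 (1.33 to 1.93). In clusters 0, 1 and 2 its log2 ratio was 0.13, 0.22 and 0.34, against 0.67 in the members.

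Among 15 trafficking and residency genes, 6 were higher and 9 lower (median -0.24). Cxcr6, a receptor of tissue-resident lymphocytes, had 848 CPM (702 to 1016) and 1303 CPM (1188 to 1426). Its log2 ratio was 0.61, beside 0.22, 0.59 and 0.69 in clusters 0, 1 and 2. In all clustered cells outside the members, Cxcr6 went from 73.8 to 163 CPM. Cxcr3, the receptor of interferon-induced chemokines, had 10 UMIs in 7 chow and 64 in 36 ketogenic members (log2 1.24) and was the list's one gene past 2-fold higher; Itgav and Cd9, with 6 and 6 UMIs each, were past 2-fold lower. Clusters 0, 1 and 2 gave 1.23, 0.52 and 0.86 for Cxcr3. Ccr2 stood at 575 and 577 CPM. The chemokine receptor gene Ccr6 had 0 and 2 UMIs and the integrin gene Itgae 0 and 1, whereas the egress receptor S1pr1 had 4 and 8.

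Of 16 scavenger and structural genes, 14 were higher under the ketogenic diet (median 0.34), and none passed 2-fold higher. Cd163l1 was 1.41-fold higher (1.14 to 1.76), Ltb4r1, a leukotriene B4 receptor, 1.60-fold (1.17 to 2.23) and Kcnk1 1.99-fold (1.06 to 4.06). Tmem176b had 2451 and 2850 CPM and Ramp1, part of the receptor for the neuropeptide CGRP, 1071 and 1098 CPM. Lgals3 (galectin-3) was past 2-fold lower, with 19 and 18 UMIs. This list holds genes that mark the population against other cells, and its direction is not independent of how the cells were chosen.

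The cytotoxic and interferon-γ genes had a median of 0.55 (-0.64 to 1.29), with 6 of 10 higher, 3 past 2-fold higher and 1, Gzma (6 and 7 UMIs), past 2-fold lower. The share of higher genes was near that of all genes (52.2%). Ccl5 had 27 UMIs in 20 chow and 157 in 59 ketogenic members, at 194 CPM (128 to 282) and 435 CPM (370 to 509). It stayed at 175 and 367 CPM without the cell of each library with the most Ccl5. Clusters 0, 1 and 2 gave log2 ratios of 0.25, -0.03 and 0.15 for Ccl5, against 1.14 in the members. In all clustered cells outside the members, Ccl5 went from 1745 CPM under chow to 3370 CPM under the ketogenic diet. In the Trdc-negative neighbours it went from 177 CPM, on 9 UMIs, to 277 CPM. In the other Trdc-rich cells it ran the other way, from 11848 to 9583 CPM. Ctsw, a cathepsin of cytotoxic lymphocytes, had 7 and 47 UMIs (log2 1.29). Gzmb had 0 UMIs and 23 UMIs in 7 cells, 14 of these in 1 cell, 2.96-fold higher against the floor of 3 counts. Prf1 and Eomes had none in either library.

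The metabolic lists differed little. Of 16 glycolysis genes 11 were higher (median 0.29), among them Pkm (403 and 602 CPM) and Aldoa (575 and 779 CPM). Pfkl (2 and 17 UMIs) was past 2-fold higher and Hk1 (6 and 7) past 2-fold lower. The glucose transporter gene Slc2a1 (0 and 10 UMIs) passed 2-fold through the added 0.5. It was 1.29-fold higher against the floor of 3 counts, which leaves out the counting error of the 10 UMIs. Of 12 lipid genes 7 were higher (median 0.25), with Slc25a20, the carnitine carrier, past 2-fold higher at 2 and 16 UMIs and 1 other gene of the list past 2-fold lower. Of the ketone body genes, Acat1 had 165 CPM (105 to 248) and 175 CPM (134 to 223) and Oxct1, which commits ketone bodies to oxidation, 9 and 18 UMIs (64.7 and 49.9 CPM). The receptor genes Hcar1 and Hcar2 had no UMI in either library.

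Of 16 immediate early and dissociation genes, 12 were higher and 4 past 2-fold higher. Btg2 had 331 CPM (242 to 441) and 834 CPM (743 to 934), with UMIs in 27 of 45 and 87 of 96 members, and a log2 ratio of 1.32, where clusters 0, 1 and 2 gave 0.60, 0.60 and 0.56. Hspa1a had 0 and 43 UMIs, 19 of them in 1 cell, and Hspa1b, its near-identical copy, 0 and 25. Against the floor of 3 counts they were 5.53-fold and 3.21-fold higher. Egr1 (15 and 10 UMIs) and Atf3 (10 and 11) were past 2-fold lower. These genes also respond to tissue digestion, and the part of that in the result was not tested. Proliferation genes were scarce: Mki67 had 1 UMI in each library and Top2a 2 and 1; Stmn1 (7 and 3) was past 2-fold lower. Of 8 interferon response genes 5 were higher (median 0.11). Of the activation genes, Pdcd1 had 137 CPM (82.2 to 213) and 191 CPM (149 to 242), Tnfrsf18 86.3 and 172 CPM and Icos 367 and 299 CPM, and Nr4a3 (16 and 16 UMIs) was past 2-fold lower. Of 6 tissue repair genes, 3 were higher and 3 lower. Furin, a protease that processes secreted proteins, had 79.1 CPM (39.5 to 141) and 164 CPM (124 to 211).

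**Figure D4:**
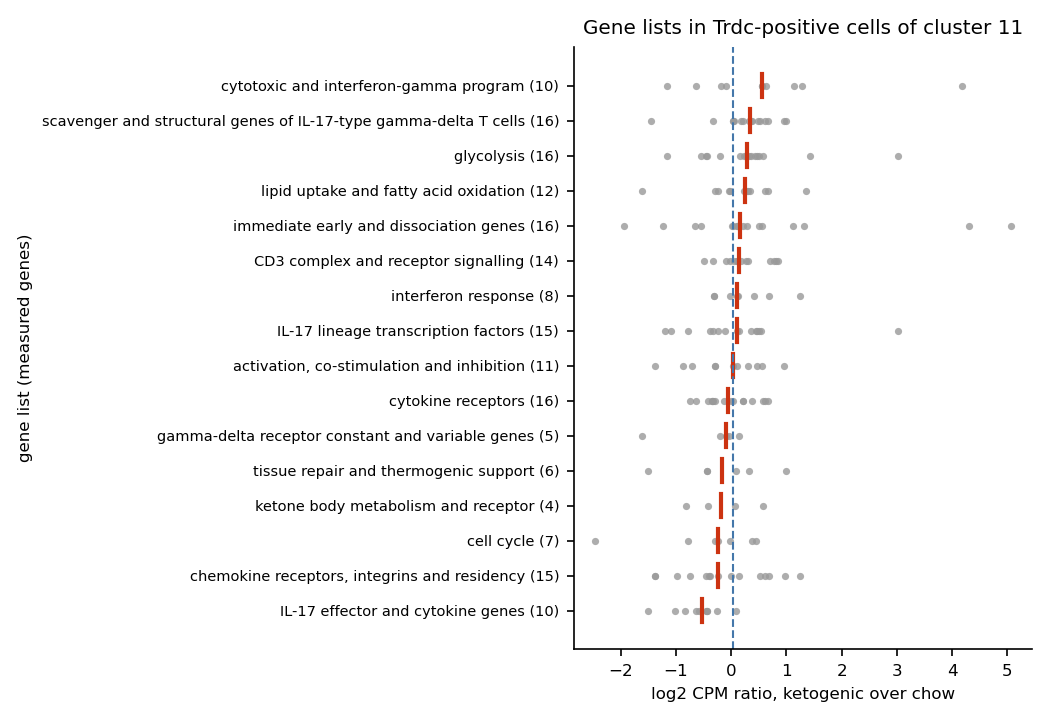
Each grey point is a gene with at least 10 UMIs in the members, by its log2 CPM ratio of ketogenic over chow (x) and its list (y, with the number of measured genes); red bars are list medians and the dashed line is the median of all 5082 genes (0.03). List medians run from -0.52 for the effector and cytokine genes to 0.55 for the cytotoxic genes.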

How the data were processed

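Single-cell RNA-seq of 2 libraries, 1 for each diet, was used. The values the authors deposited are whole-number UMI counts, not normalized, for every gene in every cell, and the authors' deposited table gives each cell's cluster number and other coordinates. The submitters' processing notes name Cell Ranger, Seurat and the mm10 build, with no versions or roles; cell filters are not given in the sources used here. No table column was left without a sample. Cells were matched to the table by barcode; counts were summed over cells per library and scaled to CPM. Ratios of CPM between diets had 0.5 added to each count. A gene was measured with at least 50 UMIs (10 in lists), and past 2-fold was used as the fold rule. Intervals are exact Poisson for sums, Clopper-Pearson for shares and exact conditional for ratios. For some shares of 0 the upper bound is 3 divided by the number of cells, where so stated. Thinning drew 1000 UMIs per cell in expectation. The floor was 3 counts in place of a 0, and a fold against it leaves out the counting error of the other count.

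The named genes were the 10 highest and 10 lowest ratios between diets, the 15 leading genes against other cells and the 8 highest and lowest against each neighbour, leaving out receptor, immunoglobulin and mitochondrial genes between diets, plus marker and list genes. The members and gene lists were chosen with earlier results of these data known. Of 28692 gene IDs, 28339 were in GENCODE M21, and 3 list symbols (Tcrg-V1, Tcrg-V2 and Selenop) were not in the files under that name. The ratio script was tested on simulated data. Python 3.11.15, numpy 2.4.6, scipy 1.17.1, pandas 2.3.3, Biopython 1.88, matplotlib 3.10.9, R 4.3.3 and edgeR 4.0.16 (TMM factors only) were used. Values of some listed genes are not reported here.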

Additional observations from a re-analysis of the deposited data

How the results depend on the processing

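The share of members among clustered cells was 1.71 times as high under the ketogenic diet, kept its direction with 5 other definitions and turned to 0.736 with clusters 2, 7 and 11 as the denominator. The number of genes past 2-fold between diets, 38 at a minimum of 50 UMIs, was 141 at 30 UMIs, 8 at 100 UMIs, 3211 with no minimum above 1 UMI and 100 over every cell of cluster 11. Against the Trdc-negative cells the number was 38 of 2268 (1.68%), and 18 at a minimum of 100 UMIs. Against cluster 4 it was 249 of 2504 (9.94%), and 136 at 100 UMIs. Higher minimums test fewer genes, so the counts given without the number tested cannot be compared as shares. After thinning, 12.7% of chow members and 13.6% of ketogenic members had a Trdv4 UMI. Of 160 alternative ratios of the named genes between diets, 160 kept their direction and 153 stayed past 2-fold. These genes were picked for extreme ratios in the same counts, which the alternatives largely reuse, so a kept direction says little. With every cell of cluster 11, H2-Ab1 went to -0.63 and Cd74 to -0.01, and Crip1 was -1.13 as a mean over cells. The cause was not tested. All 111 alternative list medians stayed within their spread. For short lists that spread was the full range of the genes, such as -2.47 to 0.44 for the cell cycle genes, so this is a weak check. Leaving out the cell with the most Il17a in each library and leaving out shared barcodes were chosen after seeing the data. Members without macrophage UMIs could not be compared, since the chow library had 0 such cells. No paired analysis was possible because each diet has 1 library. Depth limits genes with few UMIs in the 45 chow members.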
